A study of Saccharomyces cerevisiae with 24 samples.

Results

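Yeast held at 10 °C for 2 to 8 h after growth at 28 °C was compared with yeast that stayed at 28 °C for the same time. The budding yeast strain S288C was grown in SD medium, a defined glucose medium, at 28 °C to an optical density (OD600) of 1. Cultures then went to 10 °C, went to 37 °C or stayed at 28 °C, and total RNA was taken at 8 times from 0 min to 24 h, with 1 array for each temperature and time. Of the 24 arrays, 8 were used here: the 10 °C arrays at 2, 4 and 8 h, the 28 °C arrays at the same times, and the 0 min array of each series. The labels give all 8 the same strain and medium and name no deletion and no drug. The 24 h arrays and the 37 °C series were left out of the comparison, and so were the arrays of the first hour, except in the fit of the trend over time. A bulk culture gives 1 average over its cells, so fewer cells with an RNA and less of it per cell cannot be told apart.

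S288C is a haploid of mating type alpha. The 4 alpha-specific genes read between 12.26 and 14.42 on the 4 arrays of the 10 °C series, 0 min included, and between 11.97 and 14.27 on the 4 of the 28 °C series, in log2 units of the array signal, where 1 unit is 2-fold. The 6 genes specific to a cells read between 6.47 and 10.90 in the 10 °C series and between 6.77 and 9.10 in the 28 °C series. The 10 markers of sporulating cells read between 5.94 and 9.42 in the 10 °C series and between 5.90 and 9.06 in the 28 °C series. A level of 6.53 was the 95th percentile of the probe sets for another yeast species on the same array and served as the bound of background. The strain carries known defects in FLO8, an activator of adhesion genes, and HAP1, a heme-dependent activator, so levels of these transcripts do not stand for working proteins.

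Cold slows every enzyme, stiffens membranes and stabilises base pairs in RNA. In budding yeast, cold is known to raise the fatty acid desaturase Ole1, which puts double bonds into lipids, the TIR mannoproteins of the wall, and the nucleolar protein Nsr1, which takes part in ribosomal RNA processing. Over longer exposure, cells also raise genes of the general stress programme, which is held down by protein kinase A during rapid growth and includes makers of the sugar stores trehalose and glycogen.

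A large part of the transcriptome differed between the culture at 10 °C and the culture at 28 °C. Of 5449 genes measured, 2168 differed between 10 and 28 °C over 2 to 8 h by limma, a linear model fitted to all genes, with time as a block and a Benjamini-Hochberg adjusted p under 0.05. That is 39.8% of the genes. Higher at 10 °C were 1166 genes, or 21.4%, and lower were 1002, or 18.4%. All 2168 had 1 sign at all 3 times, which is no separate support, since the call itself needs differences that agree between times. Of the 2168, 719 were at least 2-fold apart on average, 367 higher and 352 lower. The median difference over all genes was 0.04. The 3 times stood in for replicates, since each temperature and time had 1 array, and the p-values therefore measure how steady a difference was between times and not how it would vary between cultures. Leaving out the 4 h arrays ended nearly all of these calls, with 7 genes higher and 4 lower, while leaving out 2 h gave 1273 and 1096 and leaving out 8 h gave 1141 and 994.

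The number of genes far apart between the cultures grew with time. At least 2-fold higher at 10 °C were 351 genes at 2 h (6.44%), 424 at 4 h (7.78%) and 604 at 8 h (11.1%). At least 2-fold lower were 300 genes at 2 h (5.51%), 402 at 4 h (7.38%) and 559 at 8 h (10.3%). At all 3 times, 178 genes were at least 2-fold higher (3.27%) and 161 at least 2-fold lower (2.95%). Most of the movement was in the cold culture: against its own 0 min array, it had 538, 833 and 1370 genes at least 2-fold away at 2, 4 and 8 h, against 3, 31 and 282 in the culture kept at 28 °C. Among the 719 called genes at least 2-fold apart, the change from the own 0 min array was larger at 10 °C than at 28 °C for 671, and for 404 the cultures had moved in opposite directions.

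**Figure D1:**
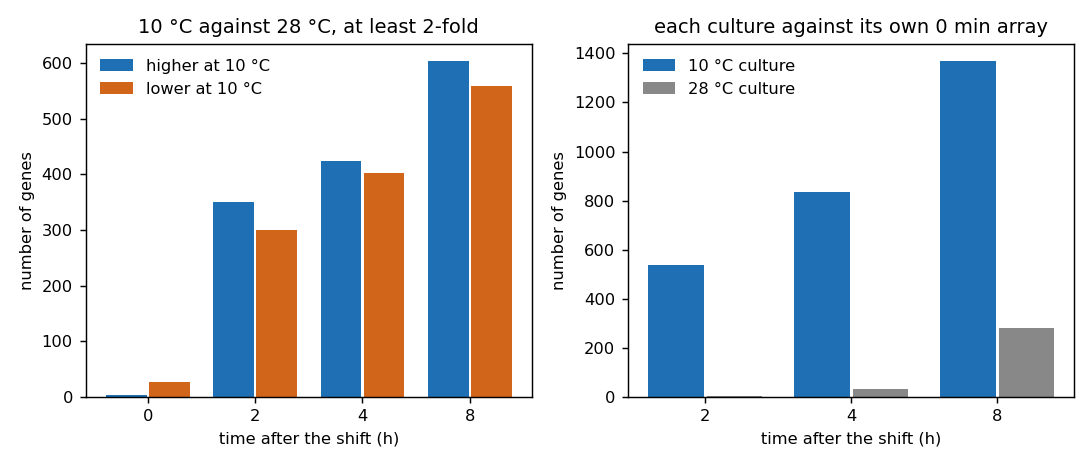
Number of genes at least 2-fold apart, by time after the shift in hours. The left panel compares 10 °C with 28 °C at each time, with higher and lower genes as separate bars, and the right panel compares each culture with its own 0 min array. The bars of the 10 °C culture climb from 538 to 1370 genes and those of the 28 °C culture from 3 to 282.

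Some genes already differed before the shift, when both cultures were at 28 °C. At 0 min, 3 genes were at least 2-fold higher in the series that later went to 10 °C (0.0551%) and 27 were at least 2-fold lower (0.496%). Of the 2168 called genes, 145 had a 0 min difference of the same sign and at least 50% as large as the later one. Among them were YOR387C, of unknown function, and its paralog VEL1. The series differed in YOR387C by -6.66 at 0 min, where its levels were 6.91 and 13.56, and by -6.53, -8.00 and -7.86 at 2, 4 and 8 h. Its cold level at 4 h lay under the bound of background, so the difference at that time has no exact size. VEL1 differed by -6.78 at 0 min and by -6.23, -7.13 and -7.42 afterwards, with all 3 later levels at 10 °C under the bound of background. Both were low in the cold series throughout, before and after the shift. The labels do not say whether the series were separate cultures before the shift, and the source of the standing difference was not tested.

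Several zinc-responsive genes were among those apart at the start. Gene lists here and below were chosen with earlier results of these data known. Their shares set against those of all genes are therefore descriptions and no separate test. Of 12 genes of the zinc regulon, 2 were higher (16.7%) and 7 lower (58.3%) after the shift, against 21.4% and 18.4% of all genes. Their median was -1.26, but it had been -0.91 at 0 min. With the 0 min difference subtracted it was -0.18, against 0.04 over all genes. ZPS1, a wall protein made when zinc is short, differed by -3.41 at 0 min and -3.63 ± 0.24 over 2 to 8 h. Here ± gives the standard error of the fit, with 3 arrays a group for a mean over 2 to 8 h. Values with the 0 min difference subtracted use 1 further array per series, and slopes are fitted to 14 arrays. ADH4, the alcohol dehydrogenase used when zinc is short, differed by -2.28 at 0 min and -1.64 ± 0.09 afterwards. The sulfate permease SUL1 differed by -3.13 at 0 min and -1.98 ± 0.40 afterwards. Subtracting the 0 min difference turned both positive, to 0.64 ± 0.19 for ADH4 and 1.16 ± 0.81 for SUL1. Against that background, IZH4 (1.35 ± 0.26) and IZH2 (1.12 ± 0.27), membrane proteins linked to zinc and sterol metabolism, were higher at 10 °C, with 0 min differences of 0.02 and -0.26. The haze-protective mannoprotein HPF1 was lower by more than its standing difference of -2.03, with levels, in the order 2, 4 and 8 h used for all levels here, of 9.70, 9.84 and 9.93 at 10 °C, and 13.84, 14.04 and 14.36 at 28 °C. Its difference was -4.26 ± 0.11, or -2.22 ± 0.22 with the 0 min value subtracted.

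**Figure D2:**
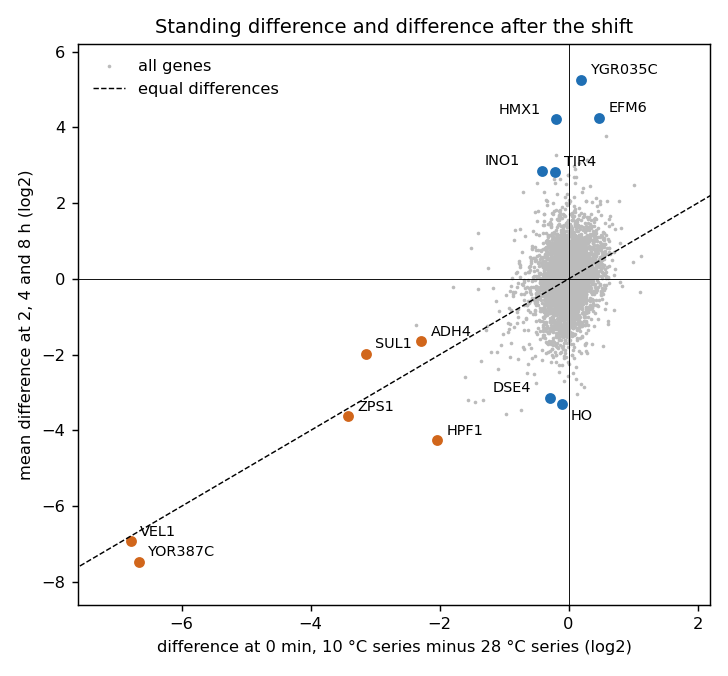
Difference between the 10 °C and 28 °C series at 0 min (horizontal axis, log2) against the mean difference at 2, 4 and 8 h (vertical axis, log2), 1 point per gene. Orange points on or near the dashed line of equal differences, such as VEL1 and ZPS1, were apart before the shift, while blue points such as YGR035C, TIR4 and HO stand near 0 on the horizontal axis.

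When the 0 min difference was subtracted in the model, 0 of 5449 genes (0%) passed limma's adjusted threshold, and 1208 had an unadjusted p under 0.05. The lowest adjusted p was 0.0834. Without the 2 h arrays 197 genes passed as higher and 180 as lower, and without the 8 h arrays 2 passed as higher and 0 as lower. This contrast carries the error of 1 further array per series, and the median standard error was 0.25, against 0.12 without the subtraction. With 1 array per series, the error at 0 min could not be measured. It was taken from the scatter between 2, 4 and 8 h. The subtraction kept the sign of 2158 of the 2168 called genes. The choice of called genes favours this, since the standard deviation of the 0 min differences over all genes was 0.28. The smallest p-values among genes with a positive value were those of EFM6, YIG1, YGR035C, TIR4 and INO1. Among negative values they were those of VPS30 (-2.45 ± 0.20), ERP3 (-2.06 ± 0.19), FUI1 (-2.31 ± 0.22), HMS2 (-2.07 ± 0.20) and HPF1. VPS30, a lipid kinase subunit that serves autophagy and vacuolar sorting, read 7.45, 7.34 and 7.33 at 10 °C, and 9.66, 9.76 and 9.68 at 28 °C. ERP3, a p24 protein of vesicles between the endoplasmic reticulum and the Golgi, read 8.82, 8.64 and 8.49 at 10 °C, and 10.87, 10.61 and 10.47 at 28 °C. In both genes every cold level was low from 2 h on. FUI1, the uridine permease, read 9.85, 8.85 and 8.69 at 10 °C, and 11.47, 10.78 and 10.46 at 28 °C. HMS2, a protein resembling heat shock factor, read 7.75, 7.10 and 6.80 at 10 °C, and 9.65, 9.23 and 8.83 at 28 °C. In each of the 4 genes all levels at 10 °C lay below all levels at 28 °C, which picking by small p-values favours.

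Measured from each culture's own 0 min array, the cold culture did most of the moving in most of the genes at least 2-fold apart, with exceptions such as SPS100 and HXT5. OLE1 differed from its start by 1.23, 1.22 and 0.97 in the cold at 2, 4 and 8 h and by 0.19, 0.03 and 0.14 at 28 °C. NSR1 stood 1.34, 1.19 and 0.62 above its start in the cold, while its 28 °C level went from 12.19 at 0 min to 12.49, 11.97 and 11.19 later, so its excess at 8 h held a decline of the control as well. TIR4 differed from its start by 2.74, 3.03 and 3.13 in the cold and by -0.10, -0.15 and 0.05 at 28 °C. In OLE1 and TIR4 the control stayed near its start. HO differed from its start by -1.65, -3.21 and -4.11 in the cold and by 0.25, 0.31 and 0.07 at 28 °C, and DSE4 by -2.38, -2.58 and -2.68 and 0.02, 0.09 and 0.80. Over gene groups, the median own change of large-subunit assembly genes was 1.00, -0.01 and -0.70 in the cold and 0.21, -0.26 and -0.58 at 28 °C. For phospholipid synthesis it was 0.47, 0.54 and 0.48 and -0.09, -0.10 and -0.36, and for G1 and Start genes -0.27, -0.48 and -0.96 and -0.04, 0.00 and -0.12. For general stress genes it was -0.52, 0.46 and 1.17 and 0.09, 0.27 and 0.51. These group medians have no test of their own, and those of all genes were 0.01, 0.02 and 0.02 in the cold and -0.01, 0.00 and -0.04 at 28 °C.

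The gene with the highest difference was YGR035C, of unknown function. It read 12.06, 12.24 and 12.19 at 10 °C, and 7.26, 6.89 and 6.56 at 28 °C. The groups lay far apart, by 5.26 ± 0.19 or 38.3-fold (adjusted p 0.00524), and the 0 min difference was 0.20. EFM6, a methyltransferase that modifies a translation elongation factor, read 11.91, 11.92 and 11.68 at 10 °C, and 7.65, 7.68 and 7.43 at 28 °C. It had reached its cold level by 2 h and stayed there, at 19.0-fold (adjusted p 0.00237). HMX1, the heme oxygenase that frees iron from heme, read 12.51, 12.90 and 13.02 at 10 °C, and 8.85, 8.44 and 8.51 at 28 °C, a difference of 4.21 ± 0.21. YIG1, a protein that binds a glycerol phosphatase, differed by 3.07 ± 0.11, and YER187W, of unknown function, by 2.99 ± 0.13. REG2, a regulatory subunit of the phosphatase Glc7 in glucose repression, differed by 2.91 ± 0.29.

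After YOR387C, VEL1, HPF1 and ZPS1, the lowest called differences were in GPG1, SPS100, HO, HXT5, SIP18 and GRE1. All of these but HO also had a 0 min difference well below 0. HO, the gene named for the endonuclease of mating-type switching, read 10.24, 8.67 and 7.77 at 10 °C, and 12.24, 12.30 and 12.06 at 28 °C. Whether this strain makes a working protein from it was not tested. HO declined from one time to the next in the cold and stayed level at 28 °C. Its difference was -3.30 ± 0.47, with a 0 min difference of -0.11. GPG1, a partner of the glucose-sensing G protein, read 7.85, 9.06 and 10.55 at 10 °C, and 12.33, 12.59 and 13.21 at 28 °C, a difference of -3.56 ± 0.36. SPS100, a spore wall protein, differed by -3.45 ± 0.19. Against its own 0 min array SPS100 differed by -0.18, 0.43 and 1.43 in the cold and by 2.03, 3.38 and 4.41 at 28 °C, so the control stood far above its start. GPG1 and SPS100 had 0 min differences of -0.98 and -0.74. The hydrophilins SIP18 and GRE1 and the hexose transporter HXT5, with 0 min differences of -1.33, -1.55 and -1.46, are described with their groups.

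Of the wall mannoproteins that mark cold and low oxygen, 9 of 16 were higher (56.2%, against 21.4% of all genes) and 1 lower, with a median of 0.51 against 0.04 over all genes. TIR4 read 10.90, 11.20 and 11.30 at 10 °C, and 8.28, 8.22 and 8.43 at 28 °C. All cold levels lay above all control levels, and the difference was 2.83 ± 0.12 or 7.10-fold (adjusted p 0.00524). PAU24, a seripauperin, differed by 1.59 ± 0.13, though its probe set is marked by the maker as one that may bind RNA of related genes, and the PAU family is large and nearly identical. TIR1 was higher by 0.56 ± 0.14, a call lost without the 8 h arrays (adjusted p 0.0628). The relatives TIR2 (0.11 ± 0.29, adjusted p 0.779) and TIP1 (0.06 ± 0.10, adjusted p 0.625) did not pass the test, with differences at the 3 times of 0.50, 0.55 and -0.71 for TIR2 and -0.01, 0.12 and 0.08 for TIP1. DAN4, another mannoprotein of the group, was lower, at -1.10 ± 0.13. Members of the family were therefore found on both sides.

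Other wall genes moved little as a group. Among 27 genes of the wall integrity pathway and the PIR proteins, 1 was higher and 4 were lower, against 21.4% and 18.4% of all genes, with a median of -0.04. The higher one was the yapsin protease YPS1 (1.08 ± 0.18). Lower were, among others, PST1 (-1.52 ± 0.12), a wall protein induced by wall stress, and the chitin transglycosylase CRH1 (-1.01 ± 0.22). Of 14 eisosome and Sur7-family genes, which shape furrows in the plasma membrane, 1 was higher and 4 lower. The potassium channel TOK1 was higher by 0.97 ± 0.19, and SUR7 (-0.83 ± 0.11) and the kinase PKH1 (-0.55 ± 0.15) were lower, PKH1 not without the 2 h arrays (adjusted p 0.0882).

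Phospholipid synthesis was the lipid pathway with the most higher genes: 14 of 23 (60.9%, against 21.4% of all genes), with 2 lower and a median of 0.62. INO1, which makes inositol phosphate, read 11.17, 11.81 and 12.17 at 10 °C, and 8.33, 9.23 and 9.02 at 28 °C. CHO1, the phosphatidylserine synthase, read 13.07, 13.33 and 13.39 at 10 °C, and 11.86, 11.69 and 11.27 at 28 °C. Neither gene's groups overlapped, and the differences were 2.86 ± 0.14 for INO1 and 1.66 ± 0.20 for CHO1. The lower ones were PIS1 (-0.50 ± 0.09), which uses inositol to make phosphatidylinositol, and the cholinephosphotransferase CPT1 (-0.49 ± 0.13). The call of CPT1 was lost without the 2 h arrays (adjusted p 0.0641) and without the 8 h arrays (0.0809).

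The desaturase gene OLE1 read 13.85, 13.84 and 13.60 at 10 °C, and 12.85, 12.69 and 12.79 at 28 °C. Its cold levels all lay above its control levels, and at 0.99 ± 0.11 or 1.98-fold (adjusted p 0.00916) it was the highest called gene of its list. Of 17 genes of fatty acid synthesis and desaturation 5 were higher (29.4%) and 3 lower (17.6%), against 21.4% and 18.4% of all genes, with a median of 0.01. FAA4, which activates fatty acids, was higher by 0.62 ± 0.10, while PHS1 (-1.39 ± 0.13), of very long chain elongation, and HFA1 (-0.95 ± 0.15), the mitochondrial acetyl-CoA carboxylase, were lower. Of 20 sphingolipid genes 8 were higher (40.0%) and 1 lower, with a median of 0.32. Among them the ceramidase YPC1 (1.01 ± 0.14) and IPT1 (0.79 ± 0.12), the last enzyme of the complex sphingolipids, were higher, and ORM1 (-0.35 ± 0.09), an inhibitor of the first step, was lower. The call of ORM1 was lost without the 2 h (adjusted p 0.0846) or the 8 h arrays (0.094). Of 28 ergosterol genes 5 were higher (17.9%) and 5 lower (17.9%), near the shares of all genes. HMG1, a reductase of the early pathway, was higher by 0.55 ± 0.13, and the sterol regulator ECM22 by 0.49 ± 0.14. HMG1 did not pass without the 8 h arrays (adjusted p 0.0568). ECM22 did not pass without the 2 h arrays (adjusted p 0.103), without the time block, or with further arrays in the fit, and its difference was -0.18 with the 24 h arrays added. The late enzymes ERG5 (-1.73 ± 0.34) and ERG4 (-0.71 ± 0.13) were lower.

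**Figure D3:**
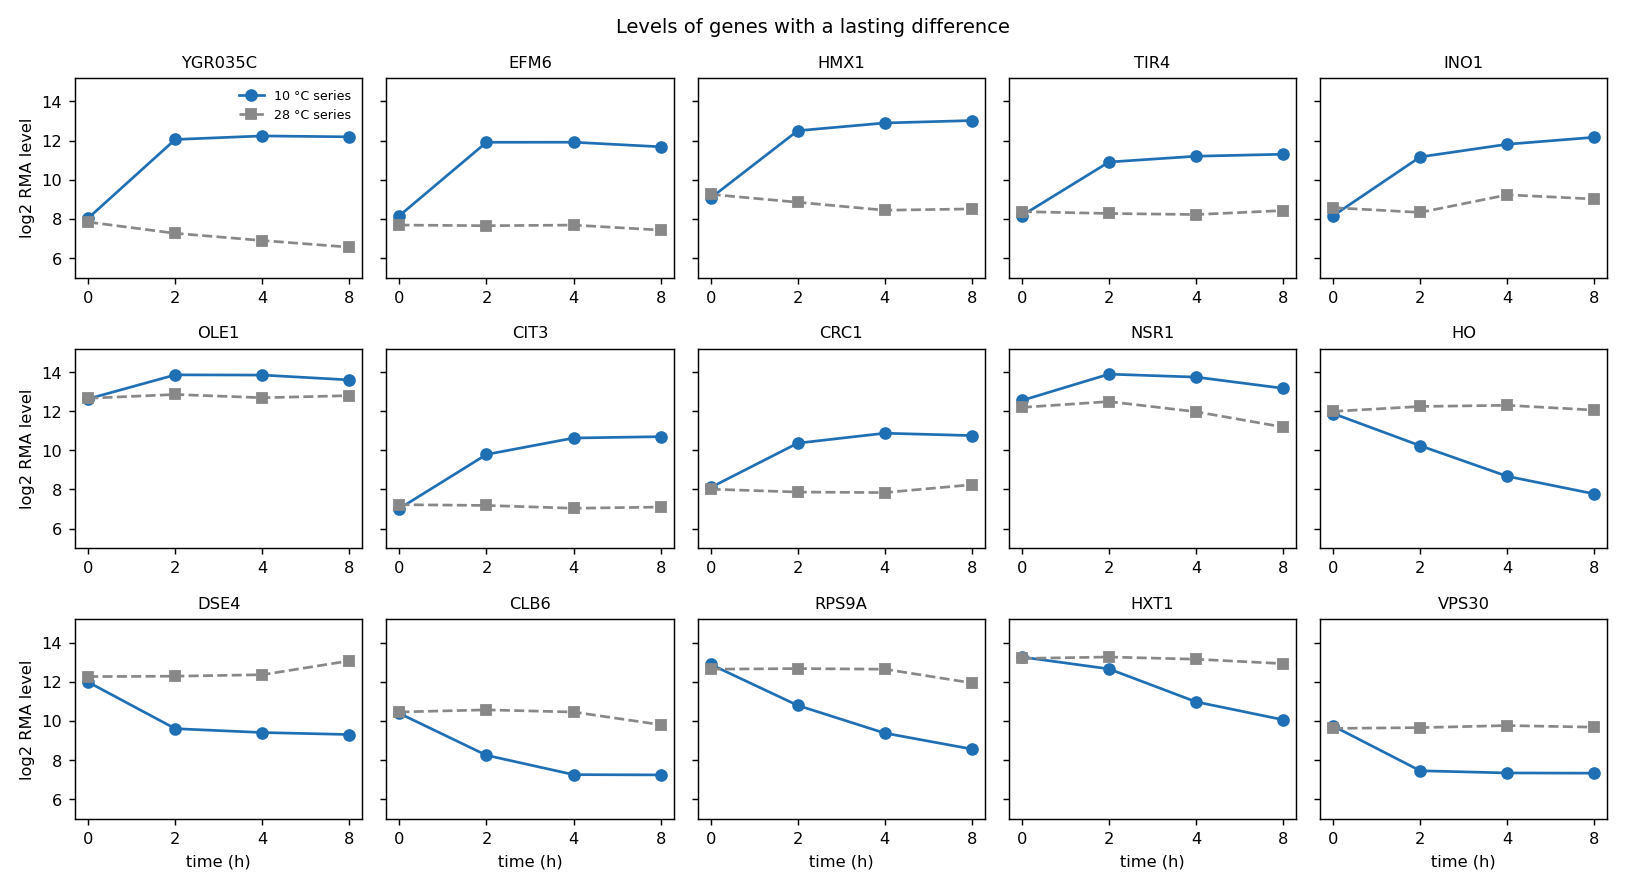
Level in log2 RMA units of 15 genes at 0, 2, 4 and 8 h, on 1 array per point, with the 10 °C series as circles and the 28 °C series as squares. From 2 h on the circles lie above the squares for YGR035C to NSR1 and below them for HO to VPS30, and at 0 min the symbols nearly coincide.

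Many genes for the use of carbon sources other than glucose were higher in the cold. Of 30 genes of gluconeogenesis, the glyoxylate cycle and peroxisomal fatty acid oxidation, 17 were higher (56.7%, against 21.4% of all genes) and 2 lower, with a median of 0.69. CRC1, the mitochondrial carnitine carrier, read 10.37, 10.87 and 10.75 at 10 °C, and 7.87, 7.84 and 8.24 at 28 °C, a difference of 2.68 ± 0.15. FBP1, fructose-1,6-bisphosphatase, read 8.46, 9.12 and 9.51 at 10 °C, and 6.87, 7.04 and 6.93 at 28 °C, a difference of 2.08 ± 0.21. In both genes every cold level was above every control level. CAT8, an activator of gluconeogenic genes, was lower, at -0.63 ± 0.11, close to its 0 min difference of -0.61. The other lower gene, the succinate-fumarate carrier SFC1, read under the bound of background on all 6 arrays.

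A pair of genes of the methylcitrate cycle, which clears propionyl-CoA, stood among the 10 highest. CIT3, the mitochondrial methylcitrate synthase, read 9.79, 10.63 and 10.70 at 10 °C, and 7.18, 7.04 and 7.10 at 28 °C, a difference of 3.26 ± 0.24. PDH1, the putative methylcitrate dehydratase, read 13.52, 13.48 and 13.01 at 10 °C, and 11.02, 10.69 and 8.90 at 28 °C, a difference of 3.14 ± 0.35. Both were high at 10 °C at every time, with no overlap. In the tricarboxylic acid cycle as a whole, 4 of 24 genes were higher and 2 lower, against 21.4% and 18.4% of all genes. CIT1, the main citrate synthase, was higher by 0.80 ± 0.10. MAE1, the malic enzyme (-1.85 ± 0.26), and the fumarase FUM1 (-0.42 ± 0.12) were lower, FUM1 not without the 8 h arrays (adjusted p 0.101).

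Among glucose transporters, HXT1 and HXT5 were the lowest called. HXT1, the low-affinity transporter of high glucose, read 12.66, 10.97 and 10.06 at 10 °C, and 13.26, 13.15 and 12.93 at 28 °C. HXT5, made in slow growth, read 7.21, 9.29 and 11.22 at 10 °C, and 11.80, 12.52 and 13.17 at 28 °C. The groups did not overlap in either gene; HXT1 drew away from its control with time and HXT5 came back towards it. Their differences were -1.88 ± 0.46 and -3.26 ± 0.52, and HXT5 had a 0 min difference of -1.46. Against its own 0 min array HXT5 differed by -2.33, -0.24 and 1.68 in the cold and by 0.81, 1.53 and 2.18 at 28 °C. Of 20 transporter and sensor genes 5 were higher and 4 lower, against 21.4% and 18.4% of all genes. The glucose-responsive repressors MIG2 (1.80 ± 0.18) and MTH1 (1.42 ± 0.17) led the higher ones. Of 31 genes of glycolysis and fermentation 5 were higher and 5 lower, with a median of 0.02. ADH2, the ethanol-consuming dehydrogenase, was higher by 1.51 ± 0.24, and GPM3, a homolog of phosphoglycerate mutase, by 1.11 ± 0.10. The aldehyde dehydrogenase ALD2 was lower, at -1.81 ± 0.15.

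Many genes that make ribosomes were higher in the cold, and their median excess was largest at 2 h. Of 63 genes of large-subunit assembly 28 were higher (44.4%, against 21.4% of all genes) and 0 lower. Their median difference was 0.34 at 0 min and 1.12, 0.64 and 0.26 at 2, 4 and 8 h. Of 51 genes of the small-subunit processome 16 were higher (31.4%) and 0 lower, with medians of 0.40 at 0 min and 0.85, 0.35 and 0.03 afterwards. Part of this stood before the shift: with the 0 min difference subtracted the medians were 0.29 and 0.02. By 8 h the processome median was close to the 0.06 of all genes at that time.

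The proteins of small nucleolar RNPs, which modify ribosomal RNA, had a median that held from 2 to 8 h. Of 21 such genes 17 were higher (81.0%) and 0 lower, against 21.4% and 18.4% of all genes. As for all lists, the choice was made with earlier results known, so this share is no separate test. The medians were 0.21 at 0 min and 0.72, 0.80 and 0.73 at 2, 4 and 8 h. NSR1 read 13.89, 13.74 and 13.17 at 10 °C, and 12.49, 11.97 and 11.19 at 28 °C. Its cold levels all lay above its control levels, and the difference was 1.72 ± 0.15 or 3.29-fold (adjusted p 0.00667), with 0.35 at 0 min. CGR1, a nucleolar protein of pre-rRNA processing, read 11.64, 10.80 and 9.99 at 10 °C, and 9.63, 9.11 and 8.92 at 28 °C, a difference of 1.59 ± 0.21. In the assembly lists the highest were MPP10 (1.37 ± 0.10) and KRR1 (1.34 ± 0.17) of the processome, the helicase DBP3 (1.44 ± 0.11) and RSA3 (1.41 ± 0.14), which join the large subunit's assembly.

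Of 36 genes of RNA polymerase I and III 11 were higher and 4 lower, against 21.4% and 18.4% of all genes. RRN11 (1.35 ± 0.19) and RRN10 (1.27 ± 0.19), initiation factors of polymerase I at the ribosomal DNA, were higher. TFC4 (-0.69 ± 0.14) and TFC8 (-0.59 ± 0.14), subunits of the polymerase III factor TFIIIC, were lower. Among 15 regulators of ribosome genes 7 were higher and 1 lower. TOD6, a repressor of ribosome assembly genes, was higher by 1.29 ± 0.23, HMO1, which binds ribosomal DNA and ribosomal protein promoters, was higher by 0.93 ± 0.10, and TCO89, a subunit of the growth-controlling TOR complex 1, was lower, at -0.94 ± 0.12.

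No gene for a cytosolic ribosomal protein passed as higher. Of 75 large-subunit genes 0 were higher and 4 lower, and of 52 small-subunit genes 0 were higher and 5 lower, against 21.4% and 18.4% of all genes. Their median differences at 2, 4 and 8 h were -0.03, -0.12 and -0.27 for the large subunit and -0.01, -0.16 and -0.31 for the small one. Single members departed far from the rest. RPS9A read 10.79, 9.38 and 8.56 at 10 °C, and 12.67, 12.64 and 11.94 at 28 °C, a difference of -2.84 ± 0.34 with no overlap. RPS28B (-1.73 ± 0.28), RPL22B (-1.72 ± 0.14) and RPL9B (-1.57 ± 0.38) were lower as well. Each is 1 gene of a duplicated pair, whose copies are nearly the same in sequence.

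Many genes that act on RNA and in translation were higher. Of 14 RNA helicases outside ribosome assembly 9 were higher (64.3%, against 21.4% of all genes) and 1 lower, with a median of 0.59. DED1, the helicase that helps ribosomes scan leaders, read 13.15, 13.26 and 13.27 at 10 °C, and 12.16, 12.00 and 11.40 at 28 °C, a difference of 1.37 ± 0.20. DBP2, a helicase that loads proteins on new mRNA, read 13.53, 13.06 and 11.54 at 10 °C, and 11.81, 11.06 and 10.39 at 28 °C, a difference of 1.63 ± 0.19. The groups did not overlap for DED1, while for DBP2, whose level was lower at each later time in both cultures, the cold level at 8 h lay under the control level at 2 h. The one lower helicase was the splicing factor PRP22 (-0.70 ± 0.17), whose call was lost without the 8 h arrays (adjusted p 0.0527). Of 38 translation factors 16 were higher (42.1%) and 0 lower, with a median of 0.29, and of 0.11 at 0 min. Their median changes from the own 0 min array were 0.18, 0.06 and -0.19 in the cold and 0.01, -0.11 and -0.34 at 28 °C. At 8 h the excess of the list thus lay in a larger decline at 28 °C and in the difference at 0 min. ANB1, the low-oxygen form of eIF5A, was higher by 1.15 ± 0.18, with 0.50 at 0 min, and TIF5, which is eIF5, by 0.85 ± 0.12.

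Of 30 RNA decay and exosome genes 4 were higher (13.3%) and 6 lower (20.0%), against 21.4% and 18.4% of all genes. The exosome subunit RRP46 (0.87 ± 0.14) and the decapping activator PAT1 (0.77 ± 0.16) were higher. LSM5 (-0.89 ± 0.13) and LSM8 (-0.80 ± 0.14), subunits of the Lsm rings, were lower, though LSM8 was at 0.0913 with the 24 h arrays added. Of 18 tRNA synthetases 2 were higher, GLN4 (0.35 ± 0.09) and THS1 (0.34 ± 0.09), with 0 min differences of 0.34 and 0.15. Both calls were lost without the 2 h arrays (adjusted p 0.0992 and 0.0997) and without the 8 h arrays (0.0751 and 0.0743). In nuclear transport 3 of 23 genes were higher and 5 lower. The exporter MSN5 was higher by 0.55 ± 0.13 and the importer KAP120 by 0.41 ± 0.10, with 0.37 for KAP120 at 0 min. Without the 8 h arrays neither passed (adjusted p 0.0589 and 0.0594). The importer KAP114 (-1.40 ± 0.14) and the export factor YRB2 (-1.01 ± 0.12) were lower.

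**Figure D4:**
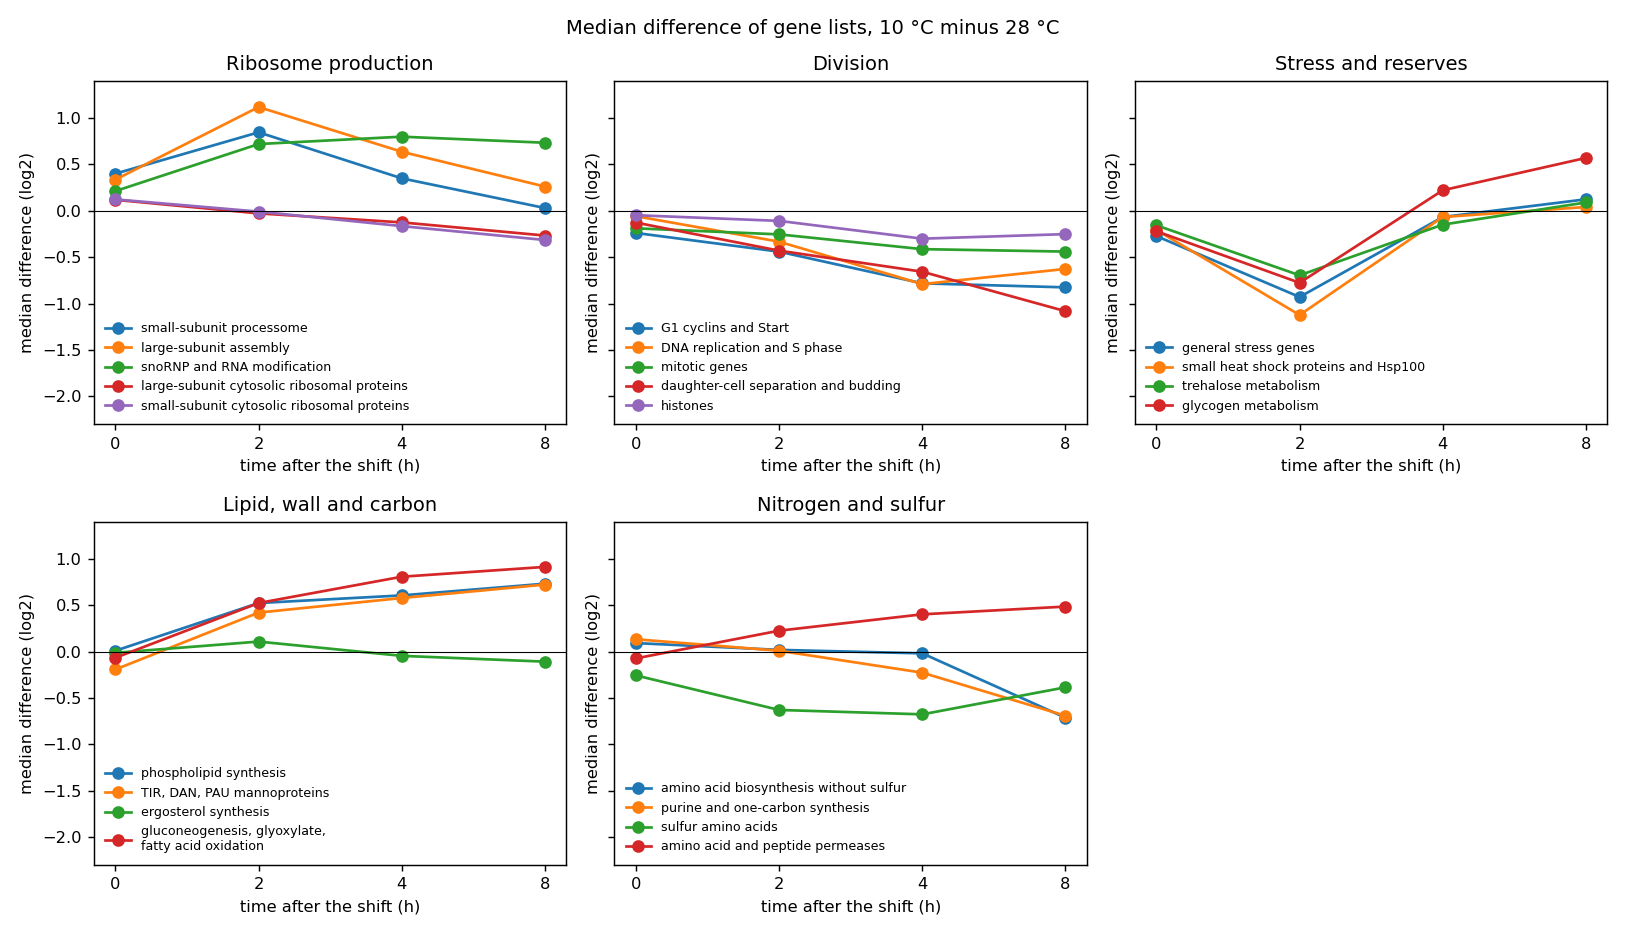
Median difference between 10 and 28 °C over the measured genes of each list (vertical axis, log2) at 0, 2, 4 and 8 h. The assembly lists peak at 2 h, at 0.85 and 1.12, the cell cycle and separation lists lie below 0 after the shift, and the general stress list lies at -0.93 at 2 h and 0.12 at 8 h.

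Many genes of the cell division cycle were lower in the cold. Of 21 genes of G1 and Start, the commitment to division, 13 were lower (61.9%, against 18.4% of all genes) and 0 higher, with a median of -0.83. Of 46 genes of DNA replication 23 were lower (50.0%) and 1 higher, with a median of -0.55. Of 34 mitotic genes 15 were lower (44.1%) and 3 higher. With the 0 min difference subtracted the 3 medians were -0.55, -0.50 and -0.12, against 0.04 for all genes. Of 10 histone genes 9 had a difference below 0, with a median of -0.27, and 1 passed as lower, HTB2 (-0.65 ± 0.17), which did not pass without the 8 h arrays (adjusted p 0.0531).

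CLB6, an S phase cyclin, read 8.24, 7.26 and 7.24 at 10 °C, and 10.56, 10.45 and 9.81 at 28 °C. CDC21, the thymidylate synthase of S phase, read 10.64, 9.62 and 8.13 at 10 °C, and 11.86, 11.94 and 11.38 at 28 °C. TOS4, a transcription factor of G1, read 9.04, 8.15 and 7.22 at 10 °C, and 10.00, 10.09 and 9.57 at 28 °C. No group overlapped with its control in these 3 genes, and the differences were -2.69 ± 0.20 for CLB6, -2.26 ± 0.41 for CDC21 and -1.75 ± 0.29 for TOS4. EGT2, a wall enzyme made in early G1, was lower, at -1.77 ± 0.19. Of the mitotic genes MYO1, the myosin of the division ring, was lower, at -2.19 ± 0.24, and the kinase ALK1 at -1.65 ± 0.23. The exceptions were the replication factor RFC5 (0.46 ± 0.11, with 0.39 at 0 min), the transcription factor MCM1 (0.64 ± 0.15) and CDH1 (0.58 ± 0.10), an activator of the anaphase-promoting complex in G1. RFC5 did not pass without the 8 h arrays (adjusted p 0.0628).

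Genes for the parting of daughter cells were lower as well: 15 of 25 were lower and 1 higher, against 18.4% and 21.4% of all genes, with medians of -0.43, -0.66 and -1.08 at 2, 4 and 8 h. DSE4, a glucanase that opens the septum from the daughter's side, read 9.60, 9.41 and 9.30 at 10 °C, and 12.28, 12.36 and 13.07 at 28 °C. DSE1, another daughter-specific gene, read 9.31, 8.73 and 8.87 at 10 °C, and 11.49, 11.50 and 12.23 at 28 °C. Every cold level of both lay far under every control level, and the differences were -3.13 ± 0.24 and -2.78 ± 0.25. The exception was GIC1 (0.80 ± 0.10), an effector of the polarity GTPase Cdc42.

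Stress genes were not uniformly high from 2 to 8 h in the cold, and their median lay below the control at 2 h and close to it later. Of 47 general stress genes 1 was higher and 7 were lower, against 21.4% and 18.4% of all genes, and the median difference was -0.93, -0.07 and 0.12 at 2, 4 and 8 h. The number of members above the control was 4, 21 and 30. The 7 small heat shock and disaggregase genes had medians of -1.12, -0.07 and 0.04, but HSP78 and HSP31 among them were below the control at every time. At 0 min the medians were -0.27 for general stress genes and -0.21 for these 7. HSP26, a small heat shock protein, read 9.05, 10.86 and 14.04 at 10 °C, and 13.63, 14.09 and 14.45 at 28 °C. At 2 and 4 h it lay far under its control and at 8 h close to it, and its mean difference of -2.74 ± 0.83 had an adjusted p of 0.0609. CTT1, the cytosolic catalase, read 11.52, 13.70 and 14.40 at 10 °C, and 13.54, 13.92 and 14.04 at 28 °C, below its control at 2 h and above it at 8 h (mean difference -0.62 ± 0.49, adjusted p 0.358). HSP12 (-1.12, -0.07 and 0.10), HSP42 (-0.67, 0.22 and 0.45) and HSP104 (-0.49, 0.14 and 0.04) had differences near 0 or of both signs and did not pass.

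Most called stress genes lay below the control at all 3 times, though the 2 lowest rose in the cold from 2 to 8 h. SIP18, a hydrophilin made on drying, read 7.88, 9.53 and 11.58 at 10 °C, and 11.99, 12.87 and 13.75 at 28 °C. GRE1, of the same kind, read 7.73, 9.21 and 12.75 at 10 °C, and 12.51, 13.20 and 13.59 at 28 °C. Both lay below their matched controls at every time, GRE1 by less at 8 h, with mean differences of -3.21 ± 0.39 and -3.20 ± 0.82 and 0 min differences of -1.33 and -1.55. Against its own 0 min array SIP18 differed by -1.79, -0.14 and 1.91 in the cold and by 0.99, 1.87 and 2.75 at 28 °C, and GRE1 by -2.72, -1.24 and 2.30 and 0.51, 1.20 and 1.59. The one higher gene was the vacuolar protease PRB1 (0.57 ± 0.13), not called without the 8 h arrays (adjusted p 0.0514). Of 7 small heat shock and disaggregase genes 2 were lower, the mitochondrial disaggregase HSP78 (-1.24 ± 0.19) and the glyoxalase-like HSP31 (-1.07 ± 0.10), and 0 were higher.

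Among 27 genes of Hsp70, Hsp90 and their partners 4 were higher and 4 lower, against 21.4% and 18.4% of all genes. The phosphatase PPT1 (1.58 ± 0.12) and the J-protein APJ1 (0.88 ± 0.12) were higher, though APJ1 was at -0.21 with the 24 h arrays added. The Hsp90 activators AHA1, which read 11.19, 11.20 and 11.28 at 10 °C, and 12.57, 12.60 and 12.68 at 28 °C, and HCH1 were lower, at -1.39 ± 0.09 and -1.21 ± 0.14. SSA4, a stress-induced Hsp70, did not pass, at -0.86, -0.43 and 0.28. Of 15 genes of the CCT chaperonin and its partner prefoldin 5 were higher and 3 lower. Among them the ring subunits CCT3 (0.79 ± 0.10) and CCT7 (0.67 ± 0.12) were higher and the prefoldin subunits YKE2 (-0.55 ± 0.12) and GIM4 (-0.53 ± 0.15) lower. Folding factors of the endoplasmic reticulum had 6 lower and 0 higher of 20, with the J-protein JEM1 (-0.92 ± 0.24) and calnexin, CNE1 (-0.88 ± 0.10), the lowest. Without the 8 h arrays the calls of GIM4 (adjusted p 0.0916) and JEM1 (0.0524) were lost. Of 11 mitochondrial matrix chaperones 3 were lower, among them ZIM17 (-0.88 ± 0.12) and HSP10 (-0.63 ± 0.11).

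For trehalose the genes that break it down were the ones that passed. Of 7 genes 3 were lower, against 18.4% of all genes, all of them trehalases: ATH1 (-1.12 ± 0.25), NTH2 (-1.10 ± 0.13) and NTH1 (-0.58 ± 0.10). The synthase subunits did not pass, with differences of -0.25, 0.39 and 0.51 for TPS1, -0.28, 0.42 and 0.34 for TPS2 and -1.61, -0.15 and 0.09 for TSL1. Each was below its control at 2 h and above it at 8 h. In glycogen metabolism 1 of 18 genes was higher, the primer GLG1 (0.86 ± 0.14), and 1 lower, the phosphatase subunit PIG1 (-0.95 ± 0.10). The group's median went from -0.22 at 0 min to -0.78, 0.22 and 0.57 at 2, 4 and 8 h.

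Stress regulators and defence genes had members on both sides. Of 26 stress transcription factors and protein kinase A genes 8 were higher and 2 lower, against 21.4% and 18.4% of all genes. SKN7, a factor of oxidative and wall stress, was higher by 1.25 ± 0.11 and SKO1, a factor of osmotic stress, by 0.85 ± 0.17. The glucose receptor GPR1, which signals to protein kinase A, read 10.03, 9.96 and 10.18 at 10 °C, and 11.29, 11.38 and 11.76 at 28 °C, a difference of -1.42 ± 0.11, and the Ras inhibitor IRA1 was lower, at -0.53 ± 0.10. In redox defence 3 of 31 were higher and 9 lower. The glutathione transferase GTT2 was higher by 1.18 ± 0.21, and GPX2 (-1.43 ± 0.23) and GRX1 (-1.32 ± 0.10), a peroxidase and a glutaredoxin, were lower. The peroxisomal catalase CTA1 was higher too, from control levels under the bound of background on all 3 arrays to 7.61, 7.73 and 7.79. In glycerol metabolism and the HOG pathway 6 of 19 were higher and 2 lower. The glycerol kinase GUT1 (0.81 ± 0.14) and the adaptor STE50 (0.78 ± 0.16) were higher, and the glycerol phosphatase GPP2 (-0.76 ± 0.14) and the osmosensor SLN1 (-0.63 ± 0.10) lower.

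A separate test asked whether the difference moved steadily from 2 to 8 h, as a slope per doubling of time. It used the 14 arrays of both series up to 8 h, with the first hour given its own term. Most residual degrees of freedom came from scatter among the first-hour differences. The rest came from departure from a line over 2 to 8 h. By limma with an adjusted p under 0.05, 695 genes had a slope, which is 12.8% of all genes. The difference rose in 309 (5.67%) and fell in 386 (7.08%). Of the 695, 206 were also called over the window and 489 were not, and in 315 the difference had opposite signs at 2 and 8 h. Without the 2 h arrays or without the 8 h arrays 0 genes passed, and without the 4 h arrays 126 rose and 205 fell. Leaving out 2 or 8 h also shortens the span of the slope, so some loss of calls is built in.

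The steepest rising genes included a pair from the membrane furrows and a pair from aromatic amino acid breakdown. YNL194C, a Sur7-family membrane protein, read 7.93, 11.49 and 12.71 at 10 °C, and 10.51, 10.76 and 10.82 at 28 °C, and its slope was 2.23 ± 0.44 (adjusted p 0.0309). FMP45, of the same family, read 8.00, 10.67 and 12.02 at 10 °C, and 12.34, 12.29 and 12.25 at 28 °C, with a slope of 2.06 ± 0.45. The reticulon RTN2 read 9.96, 12.60 and 13.93 at 10 °C, and 11.75, 12.25 and 12.28 at 28 °C, with a slope of 1.72 ± 0.38. All 3 lay below the control at 2 h; YNL194C and RTN2 passed it by 4 h and FMP45 nearly reached it at 8 h. ARO9, the aromatic aminotransferase, read 6.80, 9.13 and 11.29 at 10 °C, and 7.95, 8.82 and 7.99 at 28 °C, with a slope of 2.22 ± 0.35. ARO10, the decarboxylase that follows it, read 6.79, 8.91 and 10.84 at 10 °C, and 7.31, 7.72 and 7.16 at 28 °C, with a slope of 2.10 ± 0.12. Both were under the control at 2 h and far over it at 8 h.

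Of the 5 steepest falling genes 4 were above the control at 2 h and below it at 8 h, though SRL4 was under the bound of background in both cultures at 2 h. DAL80, a repressor of nitrogen catabolic genes, read 9.79, 9.20 and 8.32 at 10 °C, and 9.32, 10.58 and 11.58 at 28 °C, with a slope of -1.86 ± 0.27 (adjusted p 0.0213). DUR3, the urea transporter, read 13.05, 12.28 and 10.77 at 10 °C, and 12.00, 11.97 and 12.68 at 28 °C, with a slope of -1.48 ± 0.28. IRC7, a cysteine lyase, read 12.01, 11.13 and 9.79 at 10 °C, and 9.59, 9.56 and 10.84 at 28 °C, with a slope of -1.73 ± 0.37. In these 3 genes the control rose or held while the cold culture ended low. SRL4, a gene linked to replication stress, read 6.14, 6.18 and 6.03 at 10 °C, and 5.39, 5.83 and 8.44 at 28 °C, with all its cold levels under the bound of background and a slope of -1.58 ± 0.29. MCD4, an enzyme of the membrane anchor of wall proteins, read 10.85, 10.12 and 8.56 at 10 °C, and 12.00, 12.46 and 12.59 at 28 °C, with a slope of -1.44 ± 0.10, and it was also lower over the window (-2.51 ± 0.57).

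**Figure D5:**
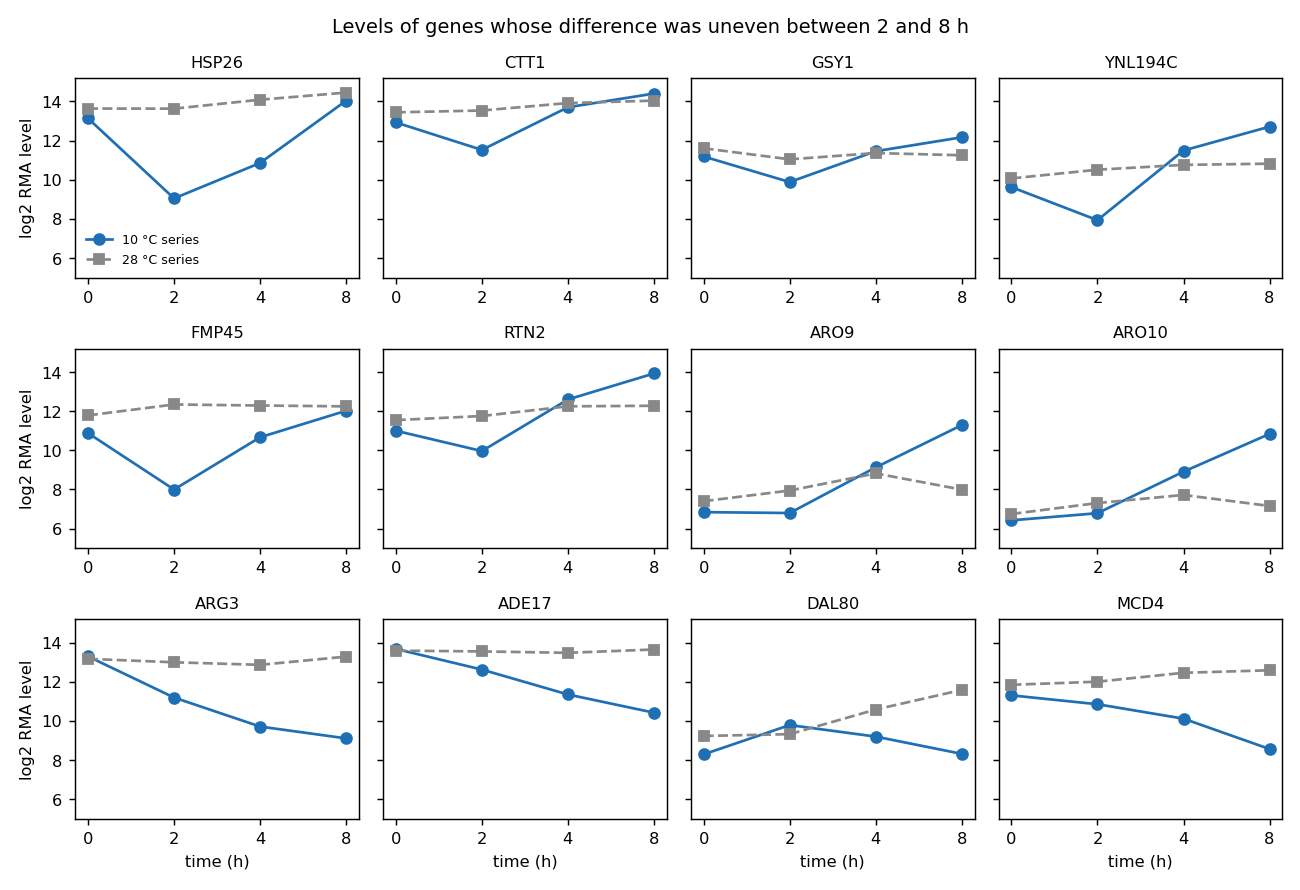
Level in log2 RMA units of 12 genes at 0, 2, 4 and 8 h, on 1 array per point, with the 10 °C series as circles and the 28 °C series as squares. For HSP26 to RTN2 the circles dip at 2 h and come back, for ARO9 and ARO10 they end above the squares, and for ARG3 to MCD4 they end below; the slopes of HSP26 and CTT1 did not pass the test.

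In several lists rising and falling slopes were unequal in number. Over all genes 5.67% rose and 7.08% fell. Rising and falling members numbered 6 and 0 of 18 in glycogen metabolism, 6 and 0 of 47 among general stress genes, and 8 and 0 of 31 in sulfur amino acid synthesis. The glycogen synthase GSY1 read 9.88, 11.46 and 12.17 at 10 °C, and 11.04, 11.36 and 11.25 at 28 °C, below its control at 2 h and above it at 8 h, with a slope of 1.04 ± 0.16. Falling members outnumbered rising ones in the small-subunit processome (13 and 0 of 51), large-subunit assembly (16 and 0 of 63) and cytosolic ribosomal proteins of the large (10 and 0 of 75) and small subunit (10 and 0 of 52). They did so too in purine synthesis (14 and 0 of 34) and amino acid synthesis (17 and 2 of 66).

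Amino acid synthesis genes had a median near the control at 2 and 4 h and a low one at 8 h. Of 66 genes outside the sulfur branch 3 were higher and 12 lower, against 21.4% and 18.4% of all genes, and the median difference was 0.02, -0.02 and -0.71 at 2, 4 and 8 h. ARG3, the ornithine carbamoyltransferase of arginine synthesis, read 11.19, 9.71 and 9.11 at 10 °C, and 13.00, 12.86 and 13.28 at 28 °C. Cold and control levels did not overlap and the gap widened at each time, to a mean of -3.04 ± 0.47 and a slope of -1.19 ± 0.11. HIS3, of histidine synthesis, was lower, at -1.43 ± 0.36, or -0.94 without the 8 h arrays. GDH3, a glutamate dehydrogenase linked to slow growth, was higher by 2.29 ± 0.28, from a 0 min difference of -0.71, and SER3, of serine synthesis, by 0.69 ± 0.14. Purine genes had a similar count, with 3 higher and 8 lower of 34 and medians of 0.01, -0.23 and -0.69. ADE17, a late enzyme of purine synthesis, read 12.62, 11.35 and 10.42 at 10 °C, and 13.55, 13.48 and 13.65 at 28 °C, a difference of -2.09 ± 0.46. GCV1, of glycine cleavage, was lower too, with differences of -1.58, -1.72 and -2.71 at the 3 times. IMD2 (1.17 ± 0.18) and IMD4 (0.57 ± 0.11), of guanine nucleotide synthesis, were higher, with 0 min differences of 0.59 and 0.41; the IMD2 probe set may also bind RNA of its relatives.

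Many genes of sulfur assimilation were lower. Of 31 genes 14 were lower (45.2%, against 18.4% of all genes) and 2 higher, with medians of -0.26 at 0 min and -0.63, -0.68 and -0.39 at 2, 4 and 8 h. With the 0 min difference subtracted the median was -0.26, with 12 genes above 0 and 19 below. Median changes from the own 0 min array were -0.48, -0.67 and -0.66 in the cold and -0.18, -0.37 and -0.77 at 28 °C. The list thus declined in both cultures, and by 8 h further at 28 °C. MET3, the ATP sulfurylase, read 11.57, 11.12 and 11.32 at 10 °C, and 13.35, 13.11 and 12.58 at 28 °C, a difference of -1.67 ± 0.17 with no overlap. CYS4 (0.60 ± 0.12), of cysteine synthesis, and SAM1 (0.51 ± 0.12), of S-adenosylmethionine synthesis, were higher, SAM1 not without the 8 h arrays (adjusted p 0.0574). Of the amino acid and peptide permeases 7 of 24 were higher and 0 lower, against 21.4% and 18.4% of all genes. The peptide transporter PTR2 read 11.98, 12.48 and 12.30 at 10 °C, and 9.59, 8.53 and 7.31 at 28 °C. Its cold levels stayed between 11.98 and 12.48 while its control levels went down, and its difference was 3.78 ± 0.52 or 13.7-fold, with 0.58 at 0 min. TAT1, an amino acid permease, was higher by 1.45 ± 0.21, with 0.68 at 0 min.

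In the iron regulon 9 of 30 genes were higher and 4 lower, against 21.4% and 18.4% of all genes. Beside HMX1, MRS4, a mitochondrial iron carrier, was higher by 1.58 ± 0.11, while ISU2, an iron-sulfur scaffold (-1.79 ± 0.17), and ARN1, a siderophore transporter (-1.71 ± 0.25), were lower. Of 22 oxygen-regulated and heme genes 5 were higher and 3 lower. HEM3, of heme synthesis, was higher by 1.59 ± 0.23. SUT1, a sterol uptake regulator (-1.38 ± 0.30), and HAP1 (-1.22 ± 0.16) were lower. In the phosphate regulon 5 of 26 were higher and 5 lower. The phosphatase PHO5 (0.71 ± 0.11) and the transporter PHO89 (0.69 ± 0.11) were higher. The activator PHO4 (-1.29 ± 0.13) and the phosphatase PHO3 (-1.15 ± 0.25) were lower.

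Of 66 mitochondrial ribosomal proteins 21 were higher (31.8%) and 3 lower, against 21.4% and 18.4% of all genes, with a median of 0.26. MRPL40 (1.14 ± 0.11) and RSM23 (1.03 ± 0.14) were the highest, and MRPL28 (-0.58 ± 0.11) and MRPL50 (-0.57 ± 0.10) the lowest. Of 39 genes of the respiratory chain and ATP synthase 2 were higher and 12 lower (30.8%), with a median of -0.22. The NADH dehydrogenase NDE1 (0.79 ± 0.09) and HAP4 (0.53 ± 0.12), an activator of respiratory genes, were higher. INH1, the inhibitor of ATP synthase (-1.40 ± 0.20), and ATP19, one of its small subunits (-1.04 ± 0.12), were lower.

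In protein turnover 16 of 36 proteasome genes were higher (44.4%) and 0 lower (0%), against 21.4% and 18.4% of all genes, with a median of 0.34. The shifts were small. SCL1, of the core particle, was higher by 0.72 ± 0.13 and RPT6, of the regulatory cap, by 0.66 ± 0.12. Of 29 autophagy genes 6 were higher (20.7%) and 7 lower (24.1%). ATG3 (1.04 ± 0.22), of lipid conjugation, and the mitophagy receptor ATG32 (0.97 ± 0.13) were higher, and ATG31 (-1.06 ± 0.19), of the initiation complex, and VPS30 (-2.33 ± 0.10) were lower. Of 18 stationary phase genes 2 were higher and 3 lower. SPG4, required in stationary phase, read 13.04, 13.91 and 14.24 at 10 °C, and 11.04, 11.26 and 11.32 at 28 °C, a difference of 2.52 ± 0.21 with no overlap. RIM15, a kinase of entry into quiescence, was higher by 0.81 ± 0.14.

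Some genes of a cells were higher at 10 °C in this alpha culture. Of the 6 on the list 4 were higher and 0 lower. MFA2, which encodes the a pheromone, read 8.22, 8.98 and 9.60 at 10 °C, and 7.07, 6.89 and 7.37 at 28 °C, a difference of 1.82 ± 0.25 with no overlap, and MFA1, the other a pheromone gene, differed by 1.39 ± 0.23. The summed signal of the 6 a-cell genes was 10.14 to 12.06 on the 4 arrays of the 10 °C series, 0 min included, and 10.18 to 10.84 on those of the 28 °C series (log2), and that of the 4 alpha genes was 15.61 to 15.91 and 15.12 to 15.99. None of the 4 alpha genes passed, and the nearest were SAG1 (-0.34 ± 0.12, adjusted p 0.0913) and MF(ALPHA)2 (0.59 ± 0.30, adjusted p 0.187). The part of other cell types in this difference was not tested. Of 38 mating genes 7 were higher and 11 lower, against 21.4% and 18.4% of all genes, and the lowest were the agglutinin AGA1 (-1.88 ± 0.20) and the motor KAR3 (-1.75 ± 0.22).

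Of 37 sporulation genes 7 were higher (18.9%) and 5 lower (13.5%), near the 21.4% and 18.4% of all genes. SPS1, a kinase of spore formation, read 8.86, 8.91 and 8.90 at 10 °C, and 6.29, 6.81 and 7.06 at 28 °C, a difference of 2.17 ± 0.17. REC102, of meiotic recombination, was higher by 1.21 ± 0.19, and SPO16, another meiotic gene, lower, at -1.90 ± 0.17. Of the 10 markers of sporulating cells 3 were higher and 0 lower. Among them SPO11, which cuts DNA in meiosis, read under the bound of background on all 3 control arrays and 6.75, 6.83 and 7.03 at 10 °C. Of 11 adhesion genes 4 were higher and 4 lower. FLO10, a flocculin (1.16 ± 0.15), and FLO8 (1.08 ± 0.13) were higher, and TEC1, a filamentation factor, was lower, at -1.48 ± 0.33.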

How the data were processed

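Biotin-labelled RNA from cold and control cultures, amplified with 1 kit per the labels' protocols, was hybridised to arrays holding 10928 probe sets. The deposited values are log2 RMA levels per probe set, and the submitters' processing notes name RMA (background correction, quantile normalization and probe summary) as the authors' method. Neither its version nor which arrays shared a run is given in the sources used here. Of the probe sets, 5498 have 1 budding yeast gene in the platform annotation, 1 has several and was left out, 1746 belong to another species and 3683 are unlisted. The 47 genes with several probe sets were averaged, which left 5449 genes. Array medians of the yeast probe sets were 10.73 to 10.76, so a shift of all RNA would not show. The number of arrays limits the precision.

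The limma package (3.58.1, under R 4.3.3) fitted differences on the 8 arrays with time as a block and a separate term for 0 min, and p-values were adjusted by Benjamini-Hochberg over 5449 genes. Residual degrees of freedom were 2 (3 for the slope), joined by 2.40 (3.06) from the prior. The code was tested on simulated data. Members and the 58 gene lists were chosen with earlier results of these data known. Genes named are the 10 highest and 10 lowest called, up to 2 called in each direction from each list, those nearest the threshold where none passed, the 5 steepest slopes each way, and a set of known cold and stress markers. Since most were picked for their differences, levels that do not overlap describe them and are no separate support. Alternatives left out 1 time, the block, dim genes or probe sets of several transcripts, added arrays or the 24 h time, or changed the normalization or the spread estimate.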

Additional observations from a re-analysis of the deposited data

Results flagged for a closer look

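The difference between the cold and control cultures had a slope from 2 to 8 h in 695 genes, 309 rising and 386 falling. The test was limma's slope per doubling of time, and the 5 steepest in each direction are given here. Such a slope can come from movement in either culture, which the test does not tell apart. From 2 to 8 h SRL4 went from 6.14 to 6.03 in the cold culture and from 5.39 to 8.44 in the control. Falling slopes were -1.86 for DAL80, -1.73 for IRC7, -1.58 for SRL4, -1.48 for DUR3 and -1.44 for MCD4. Rising slopes were 2.23 for YNL194C, 2.22 for ARO9, 2.10 for ARO10, 2.06 for FMP45 and 1.72 for RTN2. None of the 10 passed when the 2 h or the 8 h arrays were left out, which also shortens the span of the slope.

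Probe sets with no gene in the annotation also carried signal. Of 3683 such probe sets 453 had a mean at or above the bound of background, and 21 of these were at least 2-fold apart in 1 direction at 2, 4 and 8 h, 10 higher and 11 lower at 10 °C. Among 1746 probe sets of another species the number was 0, and among the named genes it was 339. Which transcripts the 21 report was not analysed here.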

How the results depend on the processing

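Each temperature and time had 1 array, so no p-value here measures variation between cultures. Over the 3 single omissions of a time, genes called higher numbered 7 to 1273 and lower 4 to 1096; with the 0 min difference subtracted, 0 to 197 and 0 to 180; rising slopes 0 to 126 and falling slopes 0 to 205. Adding the 24 h arrays left 236 higher and 260 lower. Without the time block the subtracted contrast gave 5 and 1. From the 8 arrays alone 730 slopes rose and 704 fell. At 1.5-fold, 864, 1004 and 1264 genes were higher at 2, 4 and 8 h and 784, 929 and 1087 lower. Renewed quantile normalization moved 5 list medians by more than the spread between times: cell wall integrity -0.0573, translation factors 0.27, hexose transporters 0.0931, respiratory chain -0.24 and sporulation 0.0282. The cause of these shifts was not tested. Cold and control arrays were paired by time in the fit. By replicate number, no paired analysis was possible because each group holds 1 array.

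Of 190 called genes named, 179 no longer passed without 4 h, 122 with 24 h added and 30 without the time block. Of all 213 named genes, 15 turned sign under an alternative, and 3 of the 15 were called, APJ1, ECM22 and LSM8. Omitting a time in turn gave differences of -0.42 to 1.80 for ARO9, -1.11 to 0.0736 for CTT1, -0.80 to 0.68 for DUR3, -0.53 to 0.51 for GSY1, -0.22 to 0.0896 for HSP104, -0.59 to 0.0186 for HSP12, -0.23 to 0.33 for HSP42, -0.72 to 1.00 for RTN2, -1.03 to 0.55 for SRL4, -0.11 to 0.52 for TIR2 and -0.92 to 1.31 for YNL194C. With 24 h added, APJ1 was -0.21, CTT1 0.31, ECM22 -0.18, GSY1 0.0583, HSP42 -0.11, LSM8 0.0913, SAG1 0.19, TIR2 -0.11 and YNL194C -0.19. Under quantile normalization HSP42 was -0.0352 and YNL194C -0.0494, and under median centring -0.0151 and -0.0004.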
